A study of Mus musculus with 12 samples.

Results

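The Hox cluster genes encode homeodomain transcription factors that give cells their position along the body axis. In the mouse they lie in 4 clusters, Hoxa on chromosome 6, Hoxb on chromosome 11, Hoxc on chromosome 15 and Hoxd on chromosome 2. The members were taken as the protein-coding genes named Hoxa, Hoxb, Hoxc or Hoxd plus a number. Of 38 listed names, 37 were matched among the 37991 gene identifiers of the table, which were 10 Hoxa, 10 Hoxb, 9 Hoxc and 8 Hoxd genes. Hoxd4 was not analysed here.

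Within a cluster the genes are read in the order of their paralogue numbers, with low numbers acting at anterior and high numbers at posterior levels of the embryo. Outside the tissues that use them the clusters are kept silent by Polycomb repressive complex 2 (PRC2), whose main enzyme, Ezh2, places the histone mark H3K27me3. Primordial germ cells pass through the posterior of the embryo on their way to the gonad, and repression of the somatic programme, Hox genes included, is a known feature of their formation.

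Messenger RNA was measured in germ cells sorted separately from 12 embryos at E13.5, after the gonad has taken its sex, from C57BL/6 mice. In females, 2 embryos carried the conditional Ezh2 knockout (CKO) and 3 were controls (Ctrl). In males there were 3 CKO and 4 Ctrl embryos, and every embryo gave 1 library, so p-values measure the spread between embryos. Which Cre line was used, what genotype the controls had, which embryos were littermates and which part of Ezh2 was removed are not in the labels. Because RNA was taken in bulk from the sorted cells, a change in the number of cells that use a gene and a change in RNA per cell cannot be told apart.

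Total counts ran from 26180685 to 35299206 per library. Levels are given as CPM, a gene's count scaled to a common library size, where 1 CPM was worth 24.2 to 34.2 counts. Every pair of libraries of a group differed by more than counting noise, with a chi-square per gene of 17.1 or more. The 8 germ cell markers all had counts in every library, and their summed level ran from 5510 to 6150 CPM. Markers of other gonadal cell types were far lower, and several differed with sex or genotype. The 8 mesonephric epithelium markers summed to 17.7 to 39 CPM in female libraries, against 91.5 to 116 CPM in male libraries. Most of the male sum was Lhx1 alone, at 88.7 to 113 CPM in male libraries, against 3.04 to 22.1 CPM in female libraries. Wnt9b was also higher in male libraries. Gata3 went the other way, at 9.66 to 15.3 CPM in female libraries, against 0.35 to 1.11 CPM in male libraries. The 4 coelomic epithelium markers summed to 25.8 and 41 CPM in female CKO libraries, against 59.8 to 65.5 CPM in female Ctrl libraries. In males they summed to 39.3 to 62.7 CPM in CKO libraries, against 57.1 to 68 CPM in Ctrl libraries. These sums were mostly Lrrn4, at 24.9 and 38.2 CPM in female CKO libraries, against 59.7 to 65.3 CPM in female Ctrl libraries. Krt19 went the other way, and within each sex was higher in every CKO library than in any Ctrl library. Upk3b had 65 reads in female CKO library 2 and at most 2 in any other library. The 5 pregranulosa markers summed to 13.7 to 23.7 CPM in female libraries, against 2.65 to 4.42 CPM in male libraries. Among them Fst went the other way, averaging 0.877 and 1.28 CPM in female CKO and Ctrl, and 1.88 and 2.1 CPM in male CKO and Ctrl cells. The 8 Sertoli markers summed to 12 to 16.1 CPM in female libraries, against 19.2 to 56.2 CPM in male libraries. Most of the female Sertoli sum was Aard, at 10.2 to 13.6 CPM in female libraries, against 7.87 to 19.9 CPM in male libraries. Amh and Cst9, which are products of Sertoli cells, had 0 counts in all 5 female libraries, and Foxl2, which defines the pregranulosa cell, reached at most 1.11 CPM. The part of such cells in the Hox differences between sexes or genotypes was not tested.

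Ezh2 itself stood at 84.5 and 107 CPM in female CKO libraries, against 150, 145 and 166 CPM in female Ctrl libraries. It stood at 85.8, 82.4 and 85.0 CPM in male CKO libraries, against 96.6, 144, 129 and 119 CPM in male Ctrl libraries. In neither sex did the groups overlap, although male Ctrl library 1 lay close to the male CKO libraries. The change was -0.68 ± 0.15 (log2, SE; edgeR adjusted p = 0.02) in females and -0.53 ± 0.13 (adjusted p = 0.0527) in males, so the male difference missed the threshold of 0.05 used throughout. Reads from the parts of the gene that are not deleted are counted too, and the labels do not say which parts those are.

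The stretches just upstream of 4 of the genes show what kind of sequence starts them. Hoxd1, Hoxd8 and Hoxa10 are shown because their levels differed between the sexes, and Hoxb8 because it had no count in any library. Each line gives the 250 bases before the gene's start, read 5′ to 3′ on the gene's strand, in lower case with the dinucleotide CG in capitals. The sequences are RefSeq's on GRCm38.p6, and Hoxa10 has 2 entries there, of which the one with fewer CG steps is shown.
Hoxd1, chr2:74762730-74762979, plus strand: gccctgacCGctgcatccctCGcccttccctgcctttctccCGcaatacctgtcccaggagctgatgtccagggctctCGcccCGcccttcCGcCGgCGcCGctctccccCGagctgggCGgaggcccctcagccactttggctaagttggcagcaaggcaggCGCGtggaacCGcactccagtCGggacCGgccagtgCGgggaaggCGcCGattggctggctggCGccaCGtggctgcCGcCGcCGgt
Hoxd8, chr2:74704365-74704614, plus strand: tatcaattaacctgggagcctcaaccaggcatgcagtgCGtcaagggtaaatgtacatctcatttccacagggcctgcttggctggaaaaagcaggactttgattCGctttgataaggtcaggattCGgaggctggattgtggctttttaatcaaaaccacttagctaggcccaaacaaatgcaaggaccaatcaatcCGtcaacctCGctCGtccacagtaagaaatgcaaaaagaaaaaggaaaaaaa
Hoxa10, chr6:52240855-52241104, minus strand: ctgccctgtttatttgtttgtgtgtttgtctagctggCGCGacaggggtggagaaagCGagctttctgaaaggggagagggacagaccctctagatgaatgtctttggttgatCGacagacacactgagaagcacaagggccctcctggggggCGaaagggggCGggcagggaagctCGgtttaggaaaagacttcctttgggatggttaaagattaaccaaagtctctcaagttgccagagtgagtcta
Hoxb8, chr11:96281655-96281904, plus strand: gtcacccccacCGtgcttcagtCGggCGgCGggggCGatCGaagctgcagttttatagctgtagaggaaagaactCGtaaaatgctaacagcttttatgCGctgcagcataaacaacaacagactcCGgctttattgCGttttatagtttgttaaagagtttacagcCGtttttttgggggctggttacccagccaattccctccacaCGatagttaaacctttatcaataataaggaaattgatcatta

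The Hoxd1 stretch held 24 CG steps and was 71.6% G or C. The Hoxd8 stretch held 6 CG steps (44.4% G or C), the Hoxa10 stretch 7 (51.6%) and the Hoxb8 stretch 12 (44.4%). The Hoxa10 entry that is not shown held 20 CG steps and was 59.2% G or C. CG is its own reverse complement, so both strands give the same count. Of the 37 members, 21 had a RefSeq entry, with 23 entries in all, and the counts of CG ran from 2 to 35 over these entries. Hoxa10 and Hoxd11 had 2 entries each. With the CG-richest entry of each gene, at least 10 CG steps were found in 15 of the 21 (71.4%), against 40.2% of 27025 genes with an entry. With the CG-poorest entry, as shown for Hoxa10, the number was 13 (61.9%), against 35.4%. CG-rich starts are the usual docking places of PRC2 in mammals, but no PRC2 mark was measured in these libraries.

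The 37 Hox genes were nearly silent in germ cells of every group. Summed over all of them, only 331 and 355 reads were counted in the female CKO libraries, and 344, 175 and 209 in the female Ctrl libraries. The sums were 97, 39 and 64 reads in the male CKO libraries, and 110, 253, 135 and 68 in the male Ctrl libraries. Female libraries thus held more Hox reads than male ones, apart from male Ctrl library 2, which lay inside the female range.

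Hoxb6, Hoxb8 and Hoxc12 had no count in any of the 12 libraries. The limit that a count of 0 allows, 3 counts over a group, was 0.0445 CPM for female CKO, 0.032 CPM for female Ctrl, 0.0343 CPM for male CKO and 0.0261 CPM for male Ctrl cells, and covers counting error only. Hoxa10 and Hoxa13 alone had counts in all 12 libraries, and 21 of the 37 genes had under 10 counts in their highest library. Per kilobase of exon (RPKM), 36 of 37 Hox genes were under 1 RPKM in female CKO cells, and 37 of 37 were so in the 3 other groups. Of all 20214 protein-coding genes, 48.0% were under that level in female CKO, 49.8% in female Ctrl, 51.1% in male CKO and 51.2% in male Ctrl cells. The median Hox gene stood at 0.0243 RPKM in female CKO, 0.0191 in female Ctrl, 0.0118 in male CKO and 0.0164 in male Ctrl cells, where the median protein-coding gene stood at 1.25, 1.03, 0.884 and 0.827 RPKM in the same order of groups. The one gene above 1 RPKM was Hoxd1, at 2.27 RPKM in female CKO cells.

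**Figure D1:**
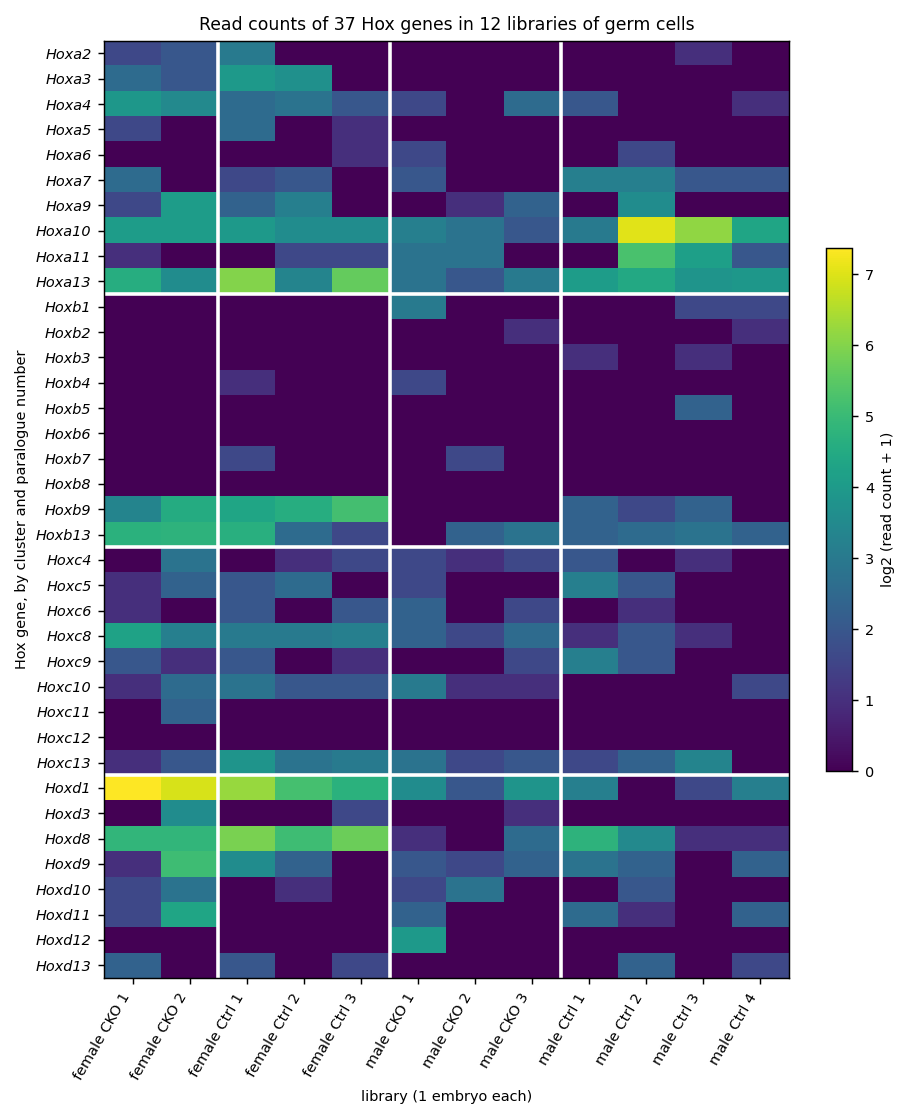
Read counts of 37 Hox genes (vertical axis, by cluster and paralogue number) in 12 libraries (horizontal axis), coloured as log2 of the count plus 1. White lines part the clusters and the groups. The brightest cells are Hoxd1 in the 2 female CKO libraries and Hoxa10 in male Ctrl library 2, and most of the Hoxb and Hoxc genes are dark throughout.

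The genes next to the clusters were not silent. Of 12 flanking genes that are not Hox genes, 10 were above 1 RPKM in all 4 groups, with group means from 2.71 RPKM for Snx10 to 322 RPKM for Atp5g3, a subunit of the mitochondrial ATP synthase. Mtx2, a mitochondrial import gene next to the Hoxd cluster, averaged 82.8 RPKM in female CKO, 72.4 in female Ctrl, 70.5 in male CKO and 58.6 in male Ctrl cells. The highest Hox gene of each of these groups stood at 2.27, 0.767, 0.165 and 0.661 RPKM.

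The counts were spread unevenly over the clusters. The Hoxd cluster gave 40.4% of all Hox reads, Hoxa 37.3%, Hoxb 11.7% and Hoxc 10.6%. A filter on low counts decided which genes could be tested, and 6 of 10 Hoxa, 2 of 10 Hoxb, 0 of 9 Hoxc and 3 of 8 Hoxd genes passed it. In all 11 of 37 passed (29.7%), against 71.7% of protein-coding genes, and these 11 genes held 80.8% of the Hox reads. A gene may pass through the one group in which it is high, so counts and medians over the 11 describe them and support no statement on the family.

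Summed over the 37 genes, the level was 9.69 and 10.7 CPM in female CKO libraries, against 10.6, 5.47 and 7.17 CPM in female Ctrl libraries. It was 3.28, 1.35 and 2.20 CPM in male CKO libraries, against 3.21, 10.4, 4.47 and 2.57 CPM in male Ctrl libraries. In both sexes the CKO and Ctrl sums overlapped. The ratio of the means was 1.32 in females and 0.441 in males. Without Hoxd1 the female ratio was 0.946, and without Hoxa10 the male ratio was 0.692.

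The Hoxd cluster summed to 5.91 and 6.53 CPM in female CKO libraries, against 4.51, 2.31 and 2.78 CPM in female Ctrl libraries, which did not overlap. In males it summed to 1.22, 0.381 and 0.791 CPM in CKO libraries, against 1.31, 0.908, 0.0993 and 0.719 CPM in Ctrl libraries, which did. Hoxd1 alone gave 285 of the 419 Hoxd reads in female CKO libraries, and 136 of the 302 in female Ctrl libraries. Hoxd8 went the other way in females, lower in both CKO libraries than in any Ctrl library. The Hoxa cluster summed to 2.05 and 1.78 CPM in female CKO libraries, against 3.56, 1.59 and 2.30 CPM in female Ctrl libraries, and to 0.914, 0.555 and 0.654 CPM in male CKO libraries, against 0.993, 8.66, 3.44 and 1.51 CPM in male Ctrl libraries. Male Ctrl library 2 was the highest of the 12, and the female groups overlapped while the male groups did not. The Hoxb cluster averaged 1.22 ± 0.32 CPM in female CKO and 1.19 ± 0.28 CPM in female Ctrl cells, 0.251 ± 0.049 CPM in male CKO and 0.345 ± 0.146 CPM in male Ctrl cells (SD, n = 2, 3, 3 and 4). The Hoxc cluster averaged 0.832 ± 0.142, 0.862 ± 0.196, 0.523 ± 0.319 and 0.415 ± 0.256 CPM in the same groups.

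**Figure D2:**
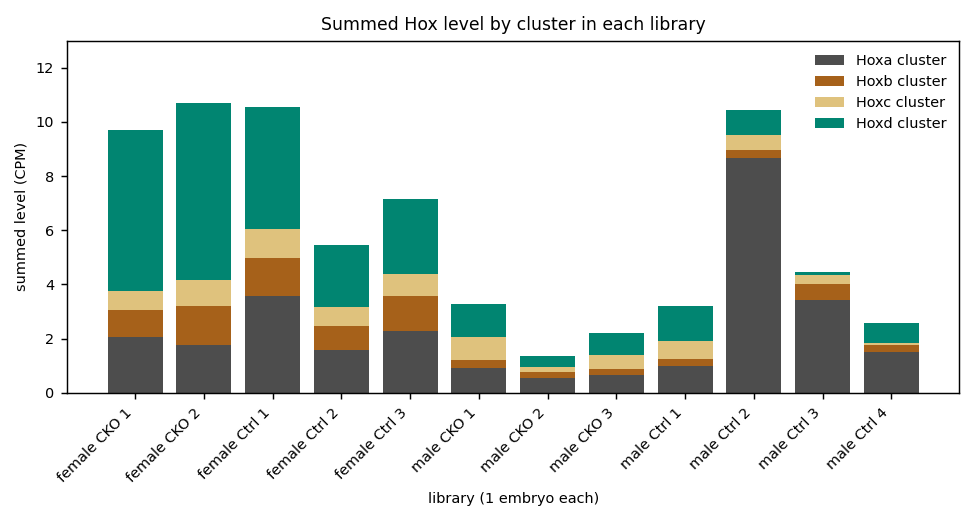
Summed level of the Hox genes of each cluster (vertical axis, CPM) in each library (horizontal axis, 1 embryo each), stacked by cluster. The Hoxd part is tallest in the 2 female CKO libraries, at 5.91 and 6.53 CPM, and the Hoxa part in male Ctrl library 2, at 8.66 CPM.

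By position within the clusters, the anterior genes (paralogues 1 to 3) summed to a mean of 4.58 CPM in female CKO and 1.8 CPM in female Ctrl cells, and to 0.410 CPM in male CKO and 0.219 CPM in male Ctrl cells. The central genes (4 to 8) summed to 1.85 and 2.25 CPM in female CKO and Ctrl cells, and to 0.524 and 0.766 CPM in male CKO and Ctrl cells. The posterior genes (9 to 13) gave 3.75 and 3.68 CPM in female CKO and Ctrl cells, and 1.35 and 4.19 CPM in male CKO and Ctrl cells. The anterior sum was mostly Hoxd1, and the male Ctrl posterior sum mostly Hoxa10. No test was made on these sums.

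The first comparison asked whether loss of Ezh2 released Hox genes in female germ cells. None of the 11 tested Hox genes was called in edgeR (0 called, 1 at an unadjusted p under 0.05), while 7.17% of all 16708 tested genes were called (3.01% higher and 4.16% lower in CKO). limma-voom called 1 Hox gene and DESeq2 0, where they called 2068 and 1989 of all 16708 tested genes, against 1198 in edgeR. The median log2 fold change was 0.27 over the 11 genes and 0 over all tested genes, and 6 of the 11 were positive.

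Hoxd1, which in the mouse patterns pain-sensing neurons, had the highest level per length (RPKM) of the Hox genes in female cells. Its level was 4.83 and 3.61 CPM in female CKO libraries, against 2.30, 1.13 and 0.858 CPM in female Ctrl libraries. Both CKO libraries lay above all 3 Ctrl libraries. The log2 fold change was 1.56 ± 0.67 (SE, edgeR), with an adjusted p of 0.18. It passed the threshold in limma-voom (1.73, adjusted p = 0.0158) and with only the female groups fitted (1.58, adjusted p = 0.0484), and in none of the other 18 alternatives, whose adjusted p reached 0.477.

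Haglr, a non-coding gene, starts 83 bases from the start of Hoxd1 on GRCm38. As annotated there, the 2 genes do not overlap. The libraries do not mark the strand. Haglr stood at 0.498 and 1.11 CPM in female CKO libraries, against 0.276, 0.125 and 0.309 CPM in female Ctrl libraries, so it too was higher in both CKO libraries. Its log2 fold change was 1.75 ± 0.95 (edgeR adjusted p = 0.286).

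Hoxa4, a gene of the neck region, was at 0.410 and 0.301 CPM in female CKO libraries, against 0.154, 0.188 and 0.103 CPM in female Ctrl libraries. The groups did not overlap, but the highest library held 14 reads and the adjusted p was 0.479. Hoxb13, known from the prostate and the tail end of the axis, was at 0.732 and 0.782 CPM in female CKO libraries, against 0.737, 0.156 and 0.0686 CPM in female Ctrl libraries. One Ctrl library lay between the CKO libraries, and the adjusted p was 0.449.

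Hoxa13, a gene of the digits and the hindgut, had 0.673 and 0.331 CPM in female CKO libraries, against 1.93, 0.281 and 1.68 CPM in female Ctrl libraries (adjusted p = 0.274). The second Ctrl library was the lowest of the 5, so the groups overlapped. Hoxd8, a trunk gene, had 0.820 and 0.842 CPM in female CKO libraries, against 1.78, 1.03 and 1.78 CPM in female Ctrl libraries, with both CKO libraries below the Ctrl ones (log2 -0.88 ± 0.93, adjusted p = 0.616). Hoxb9, a gene of the thorax, had 0.263 and 0.662 CPM in female CKO libraries, against 0.584, 0.719 and 1.20 CPM in female Ctrl libraries, which overlapped. Hoxa3, needed for the thymus and parathyroid, had 5 and 3 reads in female CKO libraries, against 15, 12 and 0 in female Ctrl libraries.

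Hoxa9, Hoxa11 and Hoxd9 had few reads in female cells. Hoxa9, a regulator of blood progenitors, had 2 and 16 reads in female CKO libraries, against 4, 8 and 0 in female Ctrl libraries. Hoxd9 had 1 and 33 reads in female CKO libraries, against 11, 4 and 0 in female Ctrl libraries. Hoxa11, a kidney and forearm gene, had 1 and 0 reads in female CKO libraries, against 0, 2 and 2 in female Ctrl libraries. Hoxa10 is a gene of the uterus and the lumbar region. It was at 0.468 and 0.481 CPM in female CKO libraries, against 0.461, 0.344 and 0.377 CPM in female Ctrl libraries. Both CKO libraries lay just above the Ctrl ones (edgeR adjusted p = 0.9).

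The second female CKO library held a run of Hox reads that the first lacked. There Hoxd3 had 11 reads, Hoxd9 33, Hoxd10 6 and Hoxd11 19, and in the first female CKO library these genes had 0, 1, 2 and 2 reads. Hoxc11 had its only 4 reads in the second library. The 10 mesenchyme markers summed to 33.7 CPM in that library, the highest of the 12, and to 13.1 CPM in the first; in female Ctrl libraries they summed to between 3.72 and 15.2 CPM. Col3a1 was the highest marker of that list there, at 12.8 CPM, Osr1 was at 0.0903 CPM and Lum had no read. Of the coelomic epithelium markers, Upk3b had 65 reads there, against at most 2 in any other library. The summed level of that list there, 41 CPM, lay below all female Ctrl libraries. The part of mesenchyme or coelomic epithelium in this run of Hox reads was not tested.

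**Figure D3:**
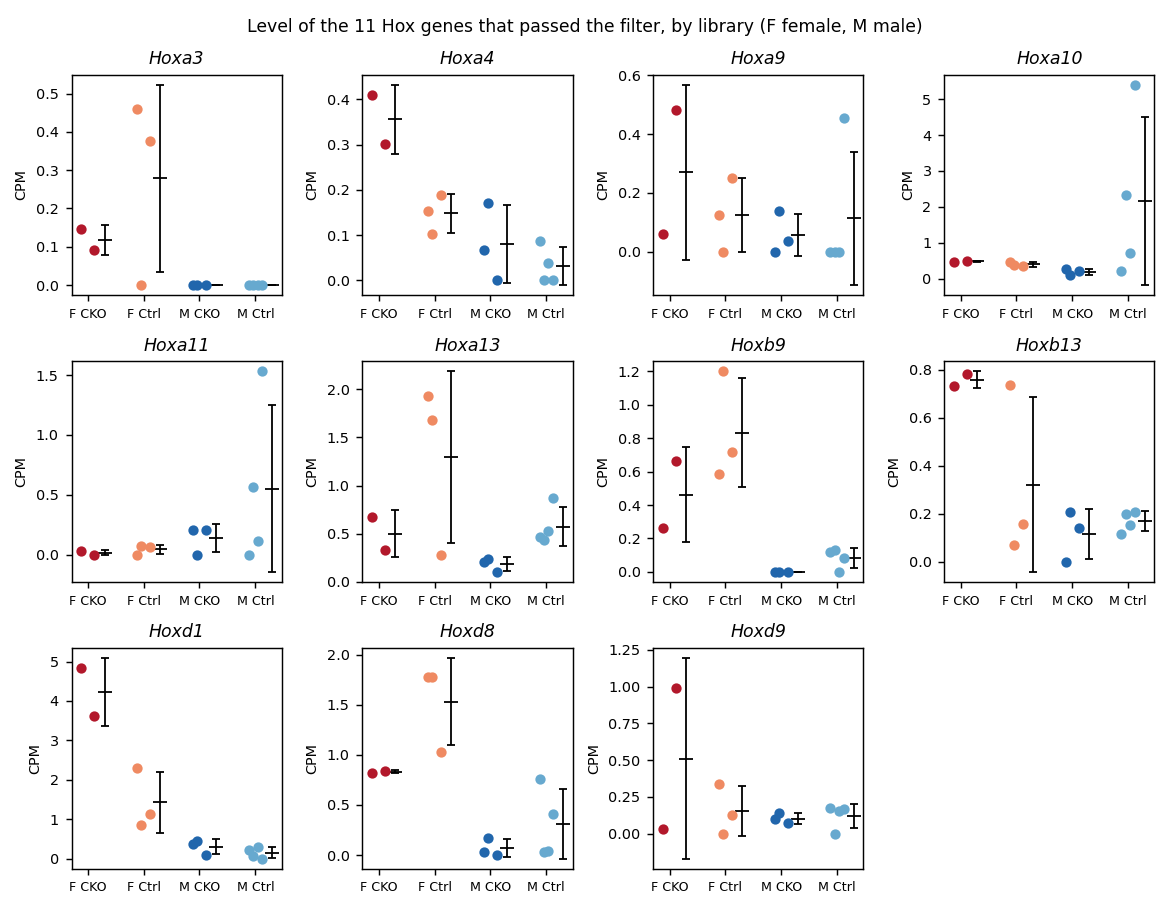
Level (CPM, vertical axes with their own scales) of the 11 Hox genes that passed the filter. Each point is 1 library, and the bar beside it gives the mean and SD of the group (n = 2 CKO and 3 Ctrl in females, 3 CKO and 4 Ctrl in males). Hoxd1 is above 3.6 CPM in both female CKO libraries, and Hoxa10 reaches 5.41 and 2.32 CPM in 2 of the 4 male Ctrl libraries.

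In male germ cells none of the 11 Hox genes was called either (0 in edgeR, 3 at an unadjusted p under 0.05), while 1.7% of all tested genes were called (1.2% higher and 0.497% lower in CKO). limma-voom called 0 Hox genes and DESeq2 1, where they called 1122 and 992 of all 16708 tested genes, against 284 in edgeR. Of the 11 genes 2 had a positive log2 fold change. The median was -0.82, or -1.05 with Hoxb9 set at its bound and without Hoxa3, which had no read in a male library, against -0.02 over all tested genes.

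Hoxa10 was at 0.271, 0.208 and 0.103 CPM in male CKO libraries, against 0.204, 5.41, 2.32 and 0.719 CPM in male Ctrl libraries. Male Ctrl libraries 2 and 3 were far above the rest, with 131 and 70 reads, and the first Ctrl library lay within the CKO range. The log2 fold change was -3.44 ± 0.89 (edgeR adjusted p = 0.0708). DESeq2 called it (-3.47, adjusted p = 0.00282), as did edgeR without male Ctrl library 1 (-3.82, adjusted p = 0.0168). Without male Ctrl libraries 2 and 3, an alternative chosen after seeing the data, it was -1.20 with an adjusted p of 0.337.

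Hoxa11, the next gene after Hoxa10, was also highest in male Ctrl libraries 2 and 3. It had 6, 6 and 0 reads in male CKO libraries, against 0, 37, 17 and 3 in male Ctrl libraries. Its antisense gene Hoxa11os was at 0, 0.0694 and 0 CPM in male CKO libraries, against 0.0292, 0.701, 0.232 and 0 CPM in male Ctrl libraries, and these reads cannot be told from those of Hoxa11 where the genes overlap. Evx1, a homeobox gene that follows Hoxa13 at the end of the cluster, was at 4.84, 7.70 and 4.20 CPM in male CKO libraries, against 5.49, 12.4, 12.3 and 2.61 CPM in male Ctrl libraries. Hoxa9, on the other side of Hoxa10, had 0, 1 and 4 reads in male CKO libraries, against 0, 11, 0 and 0 in male Ctrl libraries, so library 3 had none. The mesenchyme markers summed to 14.5, 17.7, 6.82 and 8.02 CPM in the 4 male Ctrl libraries. Libraries 2 and 3, the highest for Hoxa10, were thus the highest and the lowest of the 4 for that list. The part of mesenchyme in the Hoxa10 reads was not tested.

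Hoxa13 lay below Ctrl in every male CKO library, at 0.203, 0.104 and 0.241 CPM in male CKO, against 0.467, 0.866, 0.430 and 0.530 CPM in male Ctrl. These values come from 3 to 7 reads per CKO library and 13 to 21 per Ctrl library. The log2 fold change was -1.62 ± 0.67 (edgeR adjusted p = 0.241). Hoxb9 had no read in the 3 male CKO libraries, against 4, 2, 4 and 0 reads in male Ctrl libraries, which makes it at least 2.42-fold lower in male CKO cells (adjusted p = 0.165).

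Hoxd1 stayed low in male cells, at 0.372, 0.104 and 0.447 CPM in male CKO libraries, against 0.234, 0, 0.0662 and 0.303 CPM in male Ctrl libraries. The groups overlapped, and the log2 fold change was 0.98 ± 0.74 (adjusted p = 0.553). Hoxd8 had 1, 0 and 5 reads in male CKO libraries, against 26, 10, 1 and 1 in male Ctrl libraries (log2 -2.14 ± 1.06, adjusted p = 0.334), again with overlap. Hoxa4 had 2, 0 and 5 reads in male CKO libraries, against 3, 0, 0 and 1 in male Ctrl libraries. Hoxb13 had 0, 4 and 6 reads in male CKO libraries, against 4, 5, 6 and 4 in male Ctrl libraries. Hoxd9 had 3, 2 and 4 reads in male CKO libraries, against 6, 4, 0 and 4 in male Ctrl libraries. The groups overlapped for each of these genes, and with Hoxa9 and Hoxa11 they had adjusted p between 0.473 and 0.952.

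Across both sexes the averaged CKO effect called 0 of the 11 genes in edgeR, with 4 at an unadjusted p under 0.05, while 14.7% of all tested genes were called (6.85% higher and 7.87% lower in CKO). limma-voom and DESeq2 called 1 each, Hoxd1 and Hoxa13, where they called 3508 and 3191 of all 16708 tested genes, against 2460 in edgeR. The median was -0.61 over the 11 genes and 0.12 over the 9 with reads in every group, against -0.01 over all tested genes, so its sign turned on leaving out Hoxa3 and Hoxb9. Hoxa13 was the nearest to the threshold, at -1.49 ± 0.49 (adjusted p = 0.0582), and was called in edgeR without female Ctrl library 2 (adjusted p = 0.0172). Hoxb9 had an adjusted p of 0.0605, Hoxd1 was at 1.27 ± 0.50 (adjusted p = 0.109) and Hoxa10 at -1.59 ± 0.66 (adjusted p = 0.128). Without male Ctrl library 1 Hoxa10 was called, and without male Ctrl library 4 Hoxb9.

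The difference between the female and the male CKO effect was called for 0 Hox genes in edgeR, limma-voom and DESeq2, with 1 at an unadjusted p under 0.05 in edgeR. Over all tested genes edgeR called 0% (0 genes), with 1401 at an unadjusted p under 0.05, limma-voom 0 and DESeq2 50. The median over the 9 Hox genes with reads in every group was 1.26, against -0.01 over all tested genes. The Hox gene was Hoxa10, whose female effect exceeded its male effect by 3.70 ± 1.29 on the log2 scale (adjusted p = 0.504). The 2 CKO effects on Hoxa10 were 0.27 ± 0.96 in females and -3.44 ± 0.89 in males.

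All comparisons drew on the same 12 libraries, so those of sex share their samples with those of genotype. Among Ctrl embryos 5 of 11 genes were called between female and male cells, where 39.5% of all tested genes were called (20.1% higher and 19.4% lower in females). Hoxd1, Hoxb9, Hoxd8 and Hoxa3 were higher in female Ctrl cells and Hoxa10 was lower. The median log2 fold change was 1.18, also with Hoxa3 at its bound, against 0 over all tested genes. Among CKO embryos 4 of 11 were called, where 38.4% of all tested genes were (19.4% higher and 19% lower in females), and these were Hoxd1, Hoxb9, Hoxd8 and Hoxb13, higher in female CKO cells. The median was 2.26, or 2.15 with genes at their bound, against 0.03 over all tested genes. Beside the background the share of Hox genes called was near that of all genes in both comparisons.

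The Hoxd1 levels given above put all 3 female Ctrl libraries over all 4 male Ctrl libraries, and both female CKO libraries over all 3 male CKO libraries. The log2 fold change of female against male cells was 3.76 ± 0.74 (edgeR adjusted p = 0.00147) among CKO embryos and 3.18 ± 0.68 (adjusted p = 0.00223) among Ctrl embryos. Hoxb9 had 9 and 22 reads in female CKO libraries, against 0 in every male CKO library, higher by at least 3.75 on the log2 scale (adjusted p = 0.00248). Among Ctrl embryos Hoxb9 had 19, 23 and 35 reads in female libraries, against 4, 2, 4 and 0 in male libraries, a log2 fold change of 3.23 ± 0.74 (adjusted p = 0.00478). Both genes were called in every alternative that tested them, in both comparisons.

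Hoxd8 was higher in female than in male cells by 3.52 ± 1.11 (log2, adjusted p = 0.0232) among CKO embryos and by 2.26 ± 0.80 (adjusted p = 0.0376) among Ctrl embryos. The female and male values given above did not overlap in either genotype. Its call held in 16 of 20 alternatives among CKO embryos, and in 11 of 21 among Ctrl embryos. Leaving out any of the 5 female libraries, or male Ctrl library 3 or 4, ended the Ctrl call, with adjusted p up to 0.1.

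Hoxa3 had reads in 4 libraries, all female, with 5 and 3 in CKO and 15, 12 and 0 in Ctrl. Female Ctrl cells were at least 10.7-fold higher than male Ctrl cells, which had no read (edgeR adjusted p = 0.0234), although female Ctrl library 3 had none either. DESeq2 did not call Hoxa3 (adjusted p = 0.0548), nor did edgeR without male Ctrl libraries 2 and 3 (adjusted p = 0.0525), and without the first or the second female Ctrl library the gene was under the filter on low counts. Female CKO cells were at least 3.45-fold higher than male CKO cells (adjusted p = 0.114).

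Hoxa10 was the one tested Hox gene called lower in female cells, with a log2 fold change of -2.43 ± 0.82 (adjusted p = 0.0304) among Ctrl embryos. It rested on 2 libraries: without male Ctrl library 2 the change was -1.44 (adjusted p = 0.118), and without libraries 2 and 3 it was -0.19 (adjusted p = 0.849). Leaving out male Ctrl library 3 or any of the 3 female Ctrl libraries also ended the call, with adjusted p between 0.0544 and 0.0903. Among CKO embryos the change was 1.27 ± 1.01 (adjusted p = 0.344). Hoxa11 was lower in female Ctrl cells by -3.53 ± 1.45 on the log2 scale, short of the threshold (adjusted p = 0.068), and was called without male Ctrl library 1 (-3.97, adjusted p = 0.0184).

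Hoxb13 was called among CKO embryos, at 0.732 and 0.782 CPM in female CKO libraries, against 0, 0.139 and 0.206 CPM in male CKO libraries. The groups did not overlap, and the log2 fold change was 2.68 ± 0.98 (edgeR adjusted p = 0.0443), held in 13 of 20 alternatives. Either female CKO library, the first or second male CKO library, or male Ctrl library 3 or 4 left out ended the call. Among Ctrl embryos Hoxb13 differed by 0.94 ± 0.83 (adjusted p = 0.403).

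**Figure D4:**
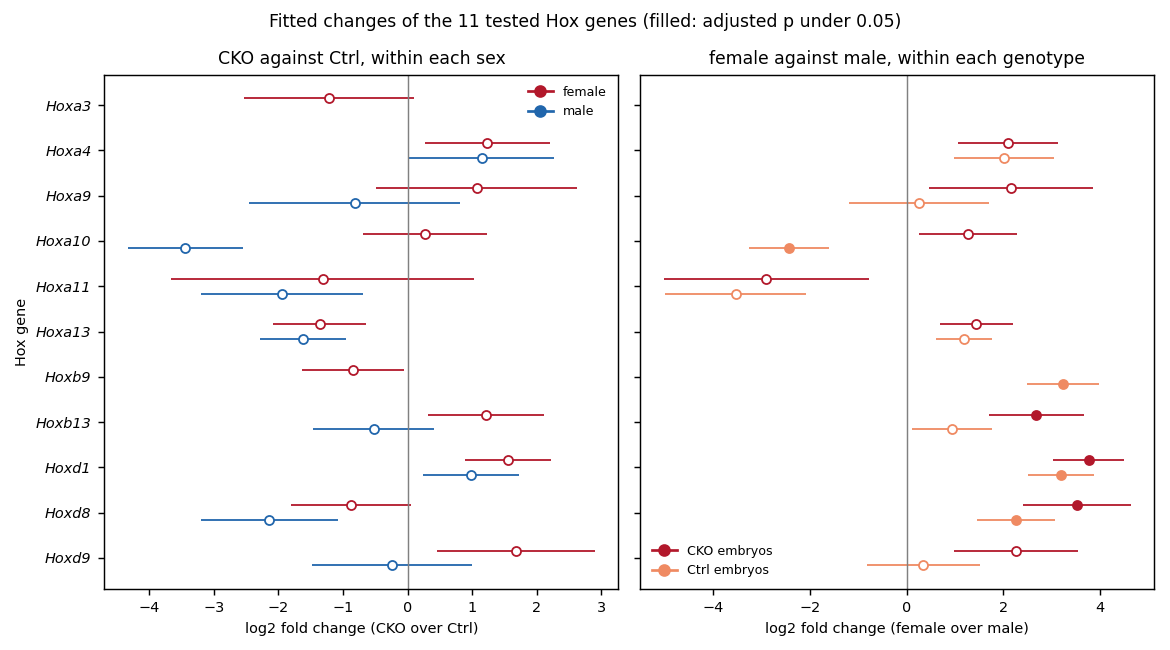
Fitted log2 fold changes (horizontal axes) of the 11 tested Hox genes (vertical axis), with bars of 1 SE, for CKO over Ctrl within each sex (left) and female over male within each genotype (right). Filled points passed an adjusted p under 0.05, and comparisons with a group at 0 reads have no point. No point on the left is filled, and on the right Hoxd1 and Hoxd8 are filled in both genotypes.

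The 26 members that did not pass the filter held 19.2% of the Hox reads. Their summed level averaged 1.67 ± 0.62 CPM in female CKO and 1.18 ± 0.46 CPM in female Ctrl cells, and 1.03 ± 0.86 CPM in male CKO and 0.907 ± 0.349 CPM in male Ctrl cells (SD, n = 2, 3, 3 and 4). Of these genes 18 had 3 reads or more in a library, and the other 8 had at most 2.

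In the Hoxc cluster, where no gene passed, Hoxc8 had the most reads, with 26 over the female CKO and 22 over the female Ctrl libraries, and 11 over the male CKO and 5 over the male Ctrl libraries. Hoxc13, known from hair and nails, had 4 and 26 reads in the female CKO and Ctrl groups, and 11 and 15 in the male CKO and Ctrl groups. Hoxc10 had 6 and 12 reads in female CKO and Ctrl cells, and 9 and 2 in male CKO and Ctrl cells. In the same order of groups, Hoxc5 had 5, 8, 2 and 11 reads and Hoxc9 had 4, 4, 2 and 11. Hoxc4 had 6, 3, 5 and 4 reads in these groups, Hoxc6 had 1, 6, 6 and 1, and Hoxc11 had 4, 0, 0 and 0. Reads of this cluster were thus spread thinly over its genes and over the libraries.

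In the Hoxa cluster below the filter, Hoxa7 had 5 and 5 reads in female CKO and Ctrl cells, and 3 and 22 in male CKO and Ctrl cells. In the same order of groups, Hoxa2 had 5, 7, 0 and 1 reads and Hoxa5 had 2, 6, 0 and 0. In the Hoxb cluster, Hoxb1, a hindbrain gene, had 0, 0, 7 and 4 reads, and Hoxb5 had 0, 0, 0 and 4. In the Hoxd cluster, Hoxd3 had 11, 2, 1 and 0 reads, Hoxd10 had 8, 1, 8 and 3, Hoxd11 had 21, 0, 4 and 10, Hoxd12 had 0, 0, 15 and 0, and Hoxd13 had 4, 5, 0 and 6.

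Several of these totals came from 1 library. All 15 reads of Hoxd12 and all 7 male CKO reads of Hoxb1 fell in the first male CKO library. There the 7 red blood cell markers summed to 20.1 CPM, against 0.658 and 0.344 CPM in the other 2 male CKO libraries. They summed to 10.5 CPM in the first female CKO library, which had no read of either Hox gene. The part of red blood cells in these Hox reads was not tested. Of the 21 female CKO reads of Hoxd11, 19 fell in the second library. The 4 reads of Hoxb5 were all in male Ctrl library 3. Amplified reads are not independent molecules, so such a run of reads in 1 library may stand for fewer transcripts than reads.

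The non-coding genes of the clusters were as low as their coding neighbours. Of 10 listed, 2 passed the filter, Hotairm1 and Haglr, and Hotair and Hoxb5os had no read in any library. Hotairm1, at the anterior end of the Hoxa cluster, was at 0.937 and 0.722 CPM in female CKO libraries, against 0.522, 0.532 and 0.309 CPM in female Ctrl libraries. It was at 0, 0.0347 and 0 CPM in male CKO libraries, against 0, 0.206, 0.0662 and 0 CPM in male Ctrl libraries. Female cells lay above male cells in both genotypes, by 5.74 ± 1.24 (log2, edgeR adjusted p = 0.00272) among CKO and 2.77 ± 0.89 (adjusted p = 0.0241) among Ctrl embryos, and the CKO effects were not called (adjusted p = 0.594 in females and 0.494 in males).

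Of the activators of Hox genes, 9 of 10 listed passed the filter, and 0 were called for CKO in either sex in edgeR, with 1 at an unadjusted p under 0.05 in each. Cdx2, which switches on posterior Hox genes in the tail of the embryo, was at 51.8 and 54.7 CPM in female CKO libraries and at 49.0, 52.8 and 44.5 CPM in female Ctrl libraries. It was at 0.135, 0.243 and 0.929 CPM in male CKO libraries and at 0.555, 0.371, 0.331 and 0.227 CPM in male Ctrl libraries. Female cells were far above male cells in both genotypes, by 6.92 ± 0.44 (log2, adjusted p = 3.96e-07) among CKO and 6.99 ± 0.38 (adjusted p = 5.53e-08) among Ctrl embryos. Cdx1 was higher in female cells too, by 2.86 ± 0.32 (adjusted p = 3.08e-05) among CKO and 2.0 ± 0.27 (adjusted p = 8.43e-05) among Ctrl embryos. Cdx4 had almost no reads.

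The TALE homeodomain proteins, which bind DNA together with Hox proteins, were all tested. In females 0 of 9 rose with CKO and 1 fell, Pknox1 (-0.45 ± 0.12, adjusted p = 0.0442), and in males 0 of 9 were called in edgeR, with 3 at an unadjusted p under 0.05. In the average over both sexes Meis1 rose by 1.98 ± 0.41 (adjusted p = 0.00777) and Meis2 by 0.79 ± 0.20 (adjusted p = 0.0218), while Pbx2 fell by 0.46 and Pknox1 by 0.28. Meis1 was at 6.47 and 8.12 CPM in female CKO libraries, against 2.18, 1.34 and 1.85 CPM in female Ctrl libraries. It was at 1.08, 1.32 and 1.58 CPM in male CKO libraries, against 0.613, 0.371, 0.364 and 0 CPM in male Ctrl libraries, so that CKO and Ctrl did not overlap in either sex.

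Among relatives and neighbours, Gsx1, of the ParaHox cluster, had no read in female CKO libraries, against 0.154, 0.438 and 0.309 CPM in female Ctrl libraries, at least 6.74-fold lower (adjusted p = 0.0478). Evx2, beside the Hoxd cluster, had no read in any library. Of the 12 flanking genes, 1 rose and 1 (Snx10, -0.83 ± 0.17, adjusted p = 0.0133) fell with CKO in females, and 1 rose and 0 fell in males. The one that rose in both was Skap1, an adaptor protein gene beside the Hoxb cluster, by 3.07 ± 0.68 (log2, adjusted p = 0.0197) in females and 2.53 ± 0.57 (adjusted p = 0.0416) in males. Skap1 was at 1.99 and 0.722 CPM in female CKO libraries, against 0.276, 0.156 and 0.0343 CPM in female Ctrl libraries. In males it was at 1.18, 1.46 and 1.31 CPM in CKO libraries, against 0.234, 0.0825, 0.232 and 0.341 CPM in Ctrl libraries.

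The developmental regulators Pax6, Irx5, Six2, Lhx2 and Tbx1, known targets of PRC2, were set beside the Hox genes. All 5 fell with CKO in females, and 3 (Pax6, Irx5 and Tbx1) fell in males. Earlier results of these data were known when that list was made, so its direction is not independent evidence. In the female comparison Pax6 fell by 6.60 on the log2 scale and Lhx2, the least changed, by 1.29. The difference between these genes and the Hox genes was not tested.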

How the data were processed

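RNA-seq libraries (SMART-seq V4, then NEBNext Ultra II, per the labels' protocols) do not mark strand. The authors deposited raw read counts per gene. Per the submitters' processing notes, featureCounts, TopHat2 2.0.11, Trimmomatic 0.33 and CASAVA 1.8.4 were used with mm9 (NCBIM37); how reads matching several places were counted is not given in the sources used here. Symbols, exon lengths and chromosomes came from GENCODE M21 (GRCm38), and matched 32919 of 37991 identifiers (99.5% of counts).

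Genes were kept by edgeR's filterByExpr (minimum count 10, total 15; 16708 genes), scaled by TMM (factors 0.926 to 1.11) and fitted with edgeR 4.0.16's robust quasi-likelihood model (limma 3.58.1, R 4.3.3), 1 coefficient per group over 12 libraries, 8 residual degrees of freedom. P-values were Benjamini-Hochberg adjusted over all tested genes, with calls under 0.05. SEs derive from the F statistic. The scripts were tested on simulated counts. Alternatives included limma-voom and DESeq2 1.42.0.

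All tested members were named with every library's CPM or count; members under the filter with 3 counts or more in a library by group totals; other lists' genes where called, and otherwise (Hotairm1's and Haglr's CKO values, Hoxa11os, Mtx2, Atp5g3) chosen after their values were seen. The members and lists were chosen with earlier results of these data known. Some genes are not reported here. The comparison of female with male CKO cells was added after seeing the data.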

Additional observations from a re-analysis of the deposited data

Results flagged for a closer look

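Sets of 4 male Ctrl libraries, 16 in all, were searched for a library far from the other 3 by Dixon's ratio, and 3 were found. Hoxa9 was at 0.454 CPM in male Ctrl library 2, where the other 3 had no read. Hoxd9 was at 0 CPM in male Ctrl library 3, where the others lay between 0.151 and 0.175 CPM. The Hoxb cluster summed to 0.562 CPM in male Ctrl library 3, against 0.263, 0.289 and 0.265 CPM in the others. The 5% chance rate of this ratio is for normally distributed values and need not hold here, as the values come from between 0 and 17 reads. Where 3 libraries have no read, as for Hoxa9, any reads in the other one are flagged.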

How the results depend on the processing

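No result reversed under an alternative. Of the single-gene values 334 kept their side of the threshold, 11 gained and 30 lost the call. Against 0 called Hox genes for CKO in females, limma-voom and a fit of only the groups compared gave 1 each (Hoxd1). Over all genes limma-voom called 2068 of 16708 and that fit 1705 of 15805, against 1198 of 16708 in the main fit. In males DESeq2 gave 1 (Hoxa10), and leaving out a library gave 0 to 1. In the average over both sexes limma-voom (Hoxd1), DESeq2 (Hoxa13) and the replicate block (Hoxd1) gave 1 each, and leaving out a library gave 0 to 1. The 5 genes called between female and male Ctrl cells became 2 with only the groups compared and 2 (Hoxb9 and Hoxd1) without male Ctrl replicates 2 and 3; leaving out a library gave 2 to 6. The 4 called between female and male CKO cells became 2 to 5 on leaving out a library. The cause was not tested, beyond the smaller number of libraries. The summed Hox ratio ran from 1.15 to 1.61 in females and from 0.344 to 0.667 in males.

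Scaling by library size alone shifted the median of all genes by 0.11 between female CKO and female Ctrl and by 0.18 between female and male CKO cells, and the Hox calls kept their number. Replicate numbers, here and as a block, are those of the sample titles. The column names of the deposited counts number some female libraries otherwise, and there female CKO and Ctrl library 1 do not share a number. Deviations of same-numbered CKO and Ctrl libraries from their group means had correlations from -0.024 to 0.108. With so few libraries per group these values cannot show whether the numbers pair the embryos. With the replicate number as a block the calls were 0, 0, 1 and 0 for CKO in females, in males, averaged and for their difference, 4 between the Ctrl sexes and 3 between the CKO sexes.

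At these depths a member with under 3 reads over a group cannot be told from one with none, and the comparisons with female CKO cells rest on 2 such embryos.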
